A study of Homo sapiens with 12 samples.

Results

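The genes described here are 10 named components of the machinery that copies centrioles: the kinase PLK4, the ubiquitin ligase TRIM37, the cartwheel proteins STIL and SASS6, the elongation factor CENPJ, the scaffold proteins CEP152, CEP192 and CEP63, and the pericentriolar proteins PCNT and CDK5RAP2. They were chosen by name, with no measured value in the rule, but with earlier results of these data known. Each was represented by the probe set with the brightest mean signal. They are 10 of 33458 genes on the array and 10 of the 15194 genes whose mean log2 signal without Dox was at least 6.5. CENPJ is listed under its current symbol CPAP, and TRIM37 was the only one of the 10 with a second probe set.

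Expression was measured on 12 Affymetrix Clariom D arrays from derivative lines of SK-N-MC and RDES, both established Ewing sarcoma (EwS) cell lines. Each parental line carried a lentiviral, doxycycline (Dox)-inducible hairpin that was either non-targeting (shCtrl) or directed against the cytokinesis gene PRC1, in its coding sequence (shCDS) or its untranslated region (shUTR). Each of these 6 derivative lines was grown for 60 h without Dox (-) or with 1 µg/ml Dox (+), with 1 array per condition. All 12 arrays thus came from cells with an integrated vector, and the shCDS and shUTR lines of 1 cell line share their parental line.

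Centrioles are the barrel-shaped cores of the centrosome, the main microtubule organizing centre of animal cells, and they are copied in step with DNA replication. PLK4 is recruited to the mother centriole by CEP192 and CEP152, phosphorylates STIL and thereby brings in SASS6, which builds the cartwheel from which the daughter grows, while CENPJ adds tubulin to the growing wall. PCNT and CDK5RAP2 organize the surrounding pericentriolar material, and TRIM37 limits the assembly of such material away from centrioles, and TRIM37 levels are known to bear on the response of cells to PLK4 inhibitors.

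The sense strands of both PRC1 hairpins, 21 bases each, are shown because they define the contrast in which the 10 genes were followed.
shCDS: caggaacattcaaaggcattt
shUTR: gcctgacttctctaccacata

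Promoters of the 10 genes were taken from RefSeq (GRCh38.p14), from 250 bases before to 50 bases after the annotated start, and all 10 were matched. They were searched on both strands for the cell cycle genes homology region (CHR, TTTGAA), an element of many promoters that are active late in the cell cycle, and for an E2F motif (TTTGGCGC). Neither motif holds the other. A CHR match was found for 4 of the 10 genes and an E2F match for 2 of the 10. Of 35093 promoters in the table, 15.2% had a CHR match and 0.653% an E2F match. These are shares of promoters and not of genes, so they are not a like measure. The windows below are 30 bases of the gene's strand with the match in capitals (for CHR TTTGAA or its reverse complement TTCAAA). They are shown so that the presence of a match can be set beside the Dox differences of the same genes.
PLK4, chr4:127880913-127880942, plus strand: ggcaagcggcgggagattTTCAAAatggga
CEP152, chr15:48811231-48811260, minus strand: ctggcgcccgctTTCAAAcagccgtacttt
CEP192, chr18:12991156-12991185, plus strand: cggcttcctcgcTTCAAAtccaggaacgcg
CDK5RAP2, chr9:120580118-120580147, minus strand: cgggaaagatggcggcgtctgtggTTTGAA
TRIM37, chr17:59107094-59107123, minus strand: gtggctccgtcTTTGGCGCgcaagtttgag
SASS6, chr1:100132897-100132926, minus strand: gcagaagccgaGCGCCAAActcaaacttta

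PRC1, the targeted gene, was low with Dox in all 4 shPRC1 lines. It was at 6.18% of its Dox (-) signal with Dox in SK-N-MC shCDS, at 13.1% in SK-N-MC shUTR, at 6.42% in RDES shCDS and at 36.2% in RDES shUTR, against 92.4% and 97.6% in the shCtrl lines. The arrays labelled RDES shCtrl went against their label. BGN, which read 15.61 to 16.04 on the SK-N-MC shPRC1 arrays and 4.42 to 4.78 on the RDES shPRC1 arrays, read 15.59 and 15.67 on the arrays labelled RDES shCtrl. STAG2, at 5.84 to 6.06 in SK-N-MC and 13.78 to 14.01 in RDES with shPRC1 hairpins, read 6.10 and 6.01 there. On the arrays labelled SK-N-MC shCtrl it read 9.15 and 9.32, outside both ranges. The identity of neither shCtrl pair is thus settled, and both pairs enter the test of PRC1 silencing. SK-N-MC shCtrl is used below as a label only. The cell lines were therefore compared over the shPRC1 arrays alone. All 9 Ewing sarcoma markers on the array passed a mean log2 signal of 6.5, with array means of 12.19 to 13.46, whereas 6 of 9 fibroblast, 2 of 10 endothelial, 0 of 9 haematopoietic and 2 of 10 epithelial markers did. As these are bulk RNA samples, fewer cells in a given cell cycle phase and less RNA per cell cannot be told apart.

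**Figure D1:**
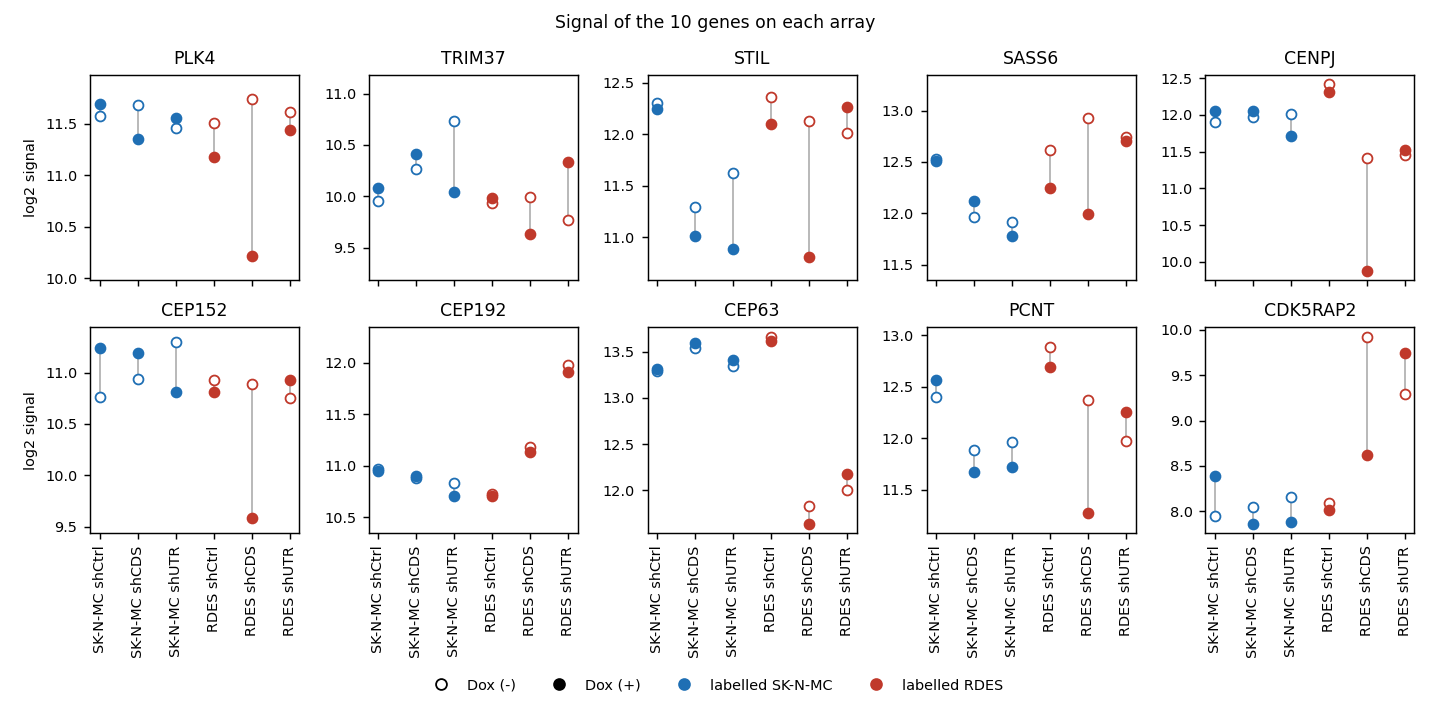
Log2 signal (y axis, every panel spanning at least 2 log2 units) of the 10 genes on each of 12 arrays, grouped by derivative line (x axis), with open circles for Dox (-), filled circles for Dox (+), blue for the label SK-N-MC and red for the label RDES. CENPJ, CEP192, CEP63 and CDK5RAP2 separate the 4 RDES shPRC1 arrays from the other 8, and the RDES shCDS Dox (+) array is the lowest of the 12 for PLK4, TRIM37, STIL, CENPJ, CEP152, CEP63 and PCNT.

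The level of each gene was described first. PLK4 (chr4:127880893-127899224), the kinase that starts duplication, read 11.58 without and 11.69 with Dox in the line labelled SK-N-MC shCtrl, 11.68 and 11.35 in SK-N-MC shCDS, and 11.46 and 11.55 in SK-N-MC shUTR. It read 11.51 and 11.17 in the line labelled RDES shCtrl, 11.74 and 10.22 in RDES shCDS, and 11.62 and 11.44 in RDES shUTR. Thus 11 of 12 arrays lay between 11.17 and 11.74, the RDES and SK-N-MC values without Dox overlapped, and the RDES shCDS Dox (+) array alone lay lower.

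TRIM37 (chr17:58967201-59106880), which marks centrosomal proteins for turnover, read 9.95 and 10.08 in SK-N-MC shCtrl, 10.27 and 10.41 in SK-N-MC shCDS, and 10.74 and 10.04 in SK-N-MC shUTR, again without and with Dox. It read 9.94 and 9.98 in the line labelled RDES shCtrl, 9.995 and 9.64 in RDES shCDS, and 9.77 and 10.33 in RDES shUTR. No array stood clear of the others for TRIM37, and its highest and lowest arrays were SK-N-MC shUTR Dox (-) and RDES shCDS Dox (+). The second probe set of TRIM37 had a mean of 8.79 and went the other way in every line. It was higher with Dox in SK-N-MC shUTR, from 8.94 to 9.39, and in RDES shCDS, from 8.46 to 8.69. It was lower in SK-N-MC shCtrl, from 8.74 to 8.69, and in SK-N-MC shCDS, from 8.93 to 8.40. So it was in the line labelled RDES shCtrl, from 9.08 to 8.26, and in RDES shUTR, from 8.98 to 8.88.

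The cartwheel genes came next. STIL (chr1:47250139-47314896), the PLK4 substrate that carries SASS6 to the new centriole, read 12.30 and 12.25 in SK-N-MC shCtrl, 11.29 and 11.01 in SK-N-MC shCDS, and 11.62 and 10.88 in SK-N-MC shUTR. STIL read 12.36 and 12.10 in the line labelled RDES shCtrl, 12.13 and 10.80 in RDES shCDS, and 12.01 and 12.26 in RDES shUTR. All 4 shCtrl arrays were thus above all 4 SK-N-MC shPRC1 arrays, with or without Dox. SASS6 (chr1:100083570-100132930), whose protein forms the spokes of the cartwheel, read 12.53 and 12.51 in SK-N-MC shCtrl, 11.97 and 12.12 in SK-N-MC shCDS, and 11.91 and 11.78 in SK-N-MC shUTR. SASS6 read 12.62 and 12.25 in the line labelled RDES shCtrl, 12.92 and 11.99 in RDES shCDS, and 12.74 and 12.71 in RDES shUTR. As for STIL, the shCtrl arrays lay above the SK-N-MC shPRC1 arrays.

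CENPJ (chr13:24882279-24934000), which extends the centriole wall, read 11.91 and 12.05 in SK-N-MC shCtrl, 11.97 and 12.06 in SK-N-MC shCDS, and 12.01 and 11.72 in SK-N-MC shUTR. It read 12.42 and 12.31 in the line labelled RDES shCtrl, 11.42 and 9.88 in RDES shCDS, and 11.45 and 11.52 in RDES shUTR. The RDES shPRC1 arrays therefore lay below the SK-N-MC shPRC1 arrays without overlap, and the lowest of them was RDES shCDS Dox (+).

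Among the scaffold genes, CEP152 (chr15:48729083-48811069), the docking partner of PLK4, read 10.77 and 11.24 in SK-N-MC shCtrl, 10.94 and 11.19 in SK-N-MC shCDS, and 11.29 and 10.81 in SK-N-MC shUTR. CEP152 read 10.93 and 10.81 in the line labelled RDES shCtrl, 10.89 and 9.59 in RDES shCDS, and 10.76 and 10.93 in RDES shUTR. Again a single array, RDES shCDS Dox (+), was set off from the other 11. CEP192 (chr18:12991362-13125036), which recruits PLK4 and pericentriolar material, read 10.97 and 10.95 in SK-N-MC shCtrl, 10.88 and 10.90 in SK-N-MC shCDS, and 10.83 and 10.71 in SK-N-MC shUTR. CEP192 read 10.72 and 10.71 in the line labelled RDES shCtrl, 11.18 and 11.13 in RDES shCDS, and 11.98 and 11.91 in RDES shUTR. CEP192 thus differed between the RDES shUTR and shCDS lines by more than it differed with Dox in any line.

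CEP63 (chr3:134485724-134782559), the partner that holds CEP152 in a ring around the mother centriole, read 13.29 and 13.31 in SK-N-MC shCtrl, 13.54 and 13.59 in SK-N-MC shCDS, and 13.35 and 13.41 in SK-N-MC shUTR. CEP63 read 13.67 and 13.61 in the line labelled RDES shCtrl, 11.83 and 11.64 in RDES shCDS, and 12.01 and 12.17 in RDES shUTR. All 4 RDES shPRC1 arrays lay below the other 8, those labelled RDES shCtrl included.

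Of the pericentriolar genes, PCNT (chr21:46324156-46445769), a large anchor for microtubule-nucleating complexes, read 12.40 and 12.57 in SK-N-MC shCtrl, 11.89 and 11.67 in SK-N-MC shCDS, and 11.96 and 11.72 in SK-N-MC shUTR. PCNT read 12.88 and 12.69 in the line labelled RDES shCtrl, 12.37 and 11.27 in RDES shCDS, and 11.98 and 12.26 in RDES shUTR. The 4 shCtrl arrays were the highest of the 12 for PCNT. CDK5RAP2 (chr9:120388875-120580167), which stimulates microtubule nucleation from gamma-tubulin rings, read 7.95 and 8.39 in SK-N-MC shCtrl, 8.05 and 7.86 in SK-N-MC shCDS, and 8.16 and 7.88 in SK-N-MC shUTR. CDK5RAP2 read 8.09 and 8.02 in the line labelled RDES shCtrl, 9.93 and 8.62 in RDES shCDS, and 9.30 and 9.75 in RDES shUTR. Every RDES shPRC1 array thus exceeded the other 8 for CDK5RAP2.

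Whether the 2 cell lines differed at baseline was tested over the 4 shPRC1 Dox (-) arrays. CEP63 was lower and CDK5RAP2 and SASS6 were higher in RDES. CEP63, the CEP152 partner, averaged 11.92 in RDES and 13.44 in SK-N-MC, 2.89-fold lower (log2 difference -1.53, SE 0.21, limma adjusted p = 0.00138). CDK5RAP2 averaged 9.61 against 8.10, 2.85-fold higher (1.51, SE 0.26, limma adjusted p = 0.00369), and SASS6 12.83 against 11.94, 1.86-fold higher (0.89, SE 0.20, limma adjusted p = 0.0120). With 1 of 10 genes lower and 2 of 10 higher, the set stands beside 20.9% of all genes tested that were lower and 13.9% that were higher in RDES. Since the replicates were 2 derivative lines of each parental line, p-values measure only the spread between such lines.

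The other 7 genes did not pass the threshold. TRIM37 differed by -0.62 (limma adjusted p = 0.0807, 95% interval -1.17 to -0.07), CENPJ by -0.56 (0.0618), STIL by 0.61 (0.0631) and CEP192 by 0.73 (0.0878). CEP152 differed by -0.29 (0.345) and PCNT by 0.25 (0.425). PLK4 had the smallest difference of the 10, 0.11 (limma adjusted p = 0.723), with a 95% interval from -0.37 to 0.59, and its arrays overlapped.

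**Figure D2:**
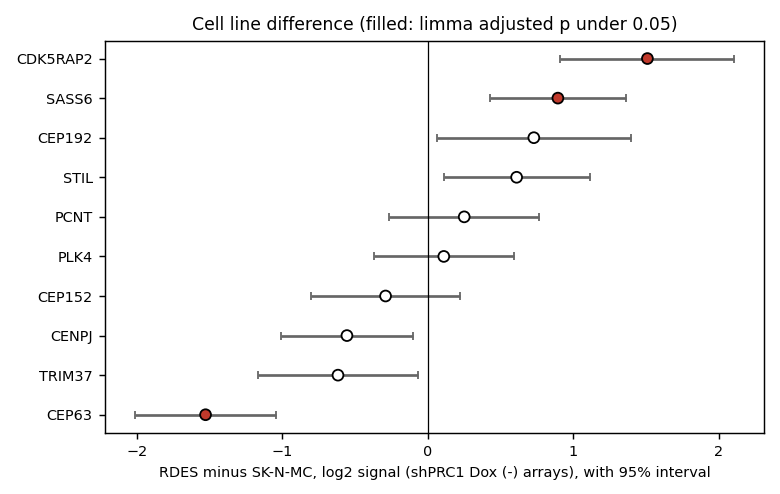
Difference in log2 signal, RDES minus SK-N-MC, over the 4 shPRC1 Dox (-) arrays (x axis) for the 10 genes (y axis), with 95% intervals of the limma fit. The intervals of CEP63, CDK5RAP2 and SASS6 lie away from 0 and their adjusted p passed the threshold. Those of TRIM37, CENPJ, STIL and CEP192 also lie away from 0, but their adjusted p did not pass, while those of PLK4, PCNT and CEP152 include 0.

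The call of SASS6 was lost without SK-N-MC shCDS (0.92, limma adjusted p = 0.0743) or SK-N-MC shUTR (0.87, 0.0962) and on the Dox (+) arrays (0.40, 0.473), where its RDES shCDS value was 11.99. On the Dox (+) arrays CEP63 also passed (-1.60, 0.00987) and CDK5RAP2 narrowly missed it (1.31, 0.0501). With the shCtrl arrays added under their labels, none of the 10 genes and 0 of 15194 genes passed.

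The shCtrl arrays also bear on STIL, SASS6 and PCNT. STIL averaged 12.25 over the 4 shCtrl arrays, against 11.46 in SK-N-MC shPRC1 and 12.07 in RDES shPRC1 cells without Dox. For SASS6 these means were 12.48, 11.94 and 12.83, and for PCNT 12.64, 11.92 and 12.17. By contrast CEP63 (13.47, 13.44 and 11.92) and CDK5RAP2 (8.11, 8.10 and 9.61) placed the shCtrl arrays with SK-N-MC. The difference of the shCtrl arrays from the shPRC1 arrays in these genes was not tested.

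Other centriole and centrosome genes were compared in the same fit, in which 13.9% of all genes tested were higher and 20.9% lower in RDES. Of 28 tested genes of centriole assembly, 4 were higher and 8 lower in RDES, among them TUBE1, the epsilon tubulin of the centriole (12.83 in SK-N-MC, 11.02 in RDES, -1.81, limma adjusted p = 0.00116), CEP97, which caps growing centrioles (-1.42), CEP85, a STIL-binding protein (8.82 against 10.52, 1.70), and USP33, a deubiquitinase of CP110 (12.71 against 14.26, 1.55). Of 20 genes of the pericentriolar material and the centrosome linker, 0 were higher and 3 lower, NEDD1 (-0.82), AKAP9 (-0.74) and LRRC45 (-0.66), all of which anchor centrosomal proteins or fibres. Of 13 appendage genes, CEP164, needed for docking of cilia, and ODF2 were higher (1.27 and 0.88) and NIN was lower (-0.68).

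Of 14 genes of centriole licensing and centrosome kinases, 1 was higher and 5 were lower. Cyclin E2 (CCNE2) had the largest difference of this list (12.37 in SK-N-MC, 10.43 in RDES, -1.94), FBXL13, an F-box protein, was lower (7.91 against 6.60, -1.31), the separase inhibitor PTTG1 was lower (-1.10), and CDC20, an activator of the anaphase promoting complex, was higher (1.22). Of 7 genes of the mitotic surveillance pathway and the PIDDosome, which respond to lost or extra centrosomes, 3 were lower and 1 higher. LATS2 (-1.33), the PIDDosome protease CASP2 (-1.18) and the distal appendage protein ANKRD26 (-0.80), which recruits that complex, were lower, and TP53BP1 was higher (0.86). The median difference was -0.12 for assembly, -0.24 for pericentriolar and linker, -0.01 for appendage, -0.13 for licensing and -0.80 for surveillance genes, against 0.18 for the 10 genes and -0.10 for all genes tested. The counts of these lists were not tested against those shares.

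The question of the main experiment was how the 10 genes responded to PRC1 silencing. The Dox (+) minus Dox (-) difference differed by derivative line. In RDES shCDS, PLK4 was lower by 1.52 on the log2 scale (34.8% of its Dox (-) signal), CENPJ differed by -1.54 (34.4%), STIL by -1.32 (40.0%), CEP152 by -1.30 (40.5%), CDK5RAP2 by -1.30 (40.5%) and PCNT by -1.10 (46.7%). SASS6 lay just outside a difference of -1 (-0.93, 52.5%), while TRIM37 (-0.36, 77.9%), CEP63 (-0.19, 87.8%) and CEP192 (-0.04, 97.0%) were nearer to their Dox (-) signal. Thus 6 of 10 genes were at or below -1 in RDES shCDS, against 3.97% of all genes tested. This line has 1 array with and 1 without Dox, so these differences have no test of their own.

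**Figure D3:**
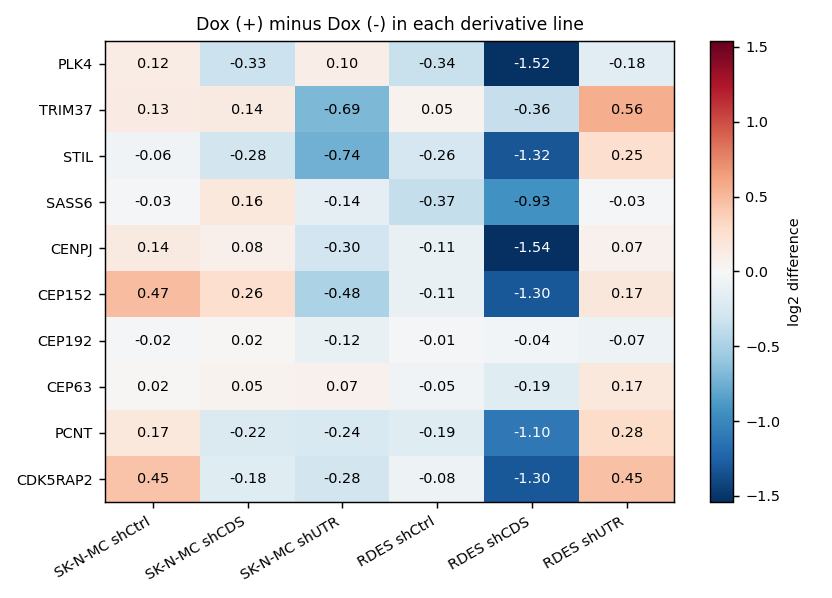
Dox (+) minus Dox (-) log2 difference of the 10 genes (rows) in the 6 derivative lines (columns), with the value in each cell and blue for lower signal with Dox. Values at or below -1 are all in RDES shCDS, where PLK4 and CENPJ differ by -1.52 and -1.54.

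In the other lines 0 of 10 genes were at or below -1, where the share of all genes tested was 1.48% in SK-N-MC shCDS, 2.96% in SK-N-MC shUTR and 0.217% in RDES shUTR. In SK-N-MC shCDS the differences ran from -0.33 for PLK4 to 0.26 for CEP152. In SK-N-MC shUTR they ran from -0.74 for STIL and -0.69 for TRIM37 to 0.10 for PLK4. In RDES shUTR they ran from -0.18 for PLK4 to 0.56 for TRIM37, and CDK5RAP2 was at 0.45. By its brighter probe set, TRIM37 therefore lay on opposite sides of 0 in the shUTR lines of the 2 cell lines. The medians of all genes tested did so too, at -0.15 in SK-N-MC shUTR and 0.17 in RDES shUTR. The second probe set of TRIM37 had the reverse pattern, from 8.94 to 9.39 in SK-N-MC shUTR and from 8.98 to 8.88 in RDES shUTR. PLK4 had the lowest value of the 10 in SK-N-MC shCDS and RDES shUTR. The shCtrl lines ran from -0.06 (STIL) to 0.47 (CEP152) under the label SK-N-MC and from -0.37 (SASS6) to 0.05 (TRIM37) under the label RDES.

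The median difference of the 10 genes was 0.12 in SK-N-MC shCtrl, 0.03 in SK-N-MC shCDS, -0.26 in SK-N-MC shUTR, -0.11 in the line labelled RDES shCtrl, -1.20 in RDES shCDS and 0.17 in RDES shUTR. The medians of all genes tested were 0.11, 0.07, -0.15, -0.07, -0.05 and 0.17 in the same order. Relative to these, the 10 genes were close to the array as a whole in 5 lines and lower in RDES shCDS. PRC1 itself was lower by a like amount in both shCDS lines, by -4.02 in SK-N-MC and -3.96 in RDES, while PLK4 was at -0.33 and -1.52.

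Over all derivative lines, with the shCtrl difference of the same label subtracted, none of the 10 genes passed the test, nor did any other gene (0%, 0 of 15194, limma; 400 genes and 0 of the 10 had an unadjusted p under 0.05). PLK4 had a coefficient of -0.37 (SE 0.38, 95% interval -1.19 to 0.45) and TRIM37 of -0.18 (SE 0.36, -0.97 to 0.61). The lowest coefficients were those of CEP152 (-0.52, SE 0.41), CDK5RAP2 (-0.51, SE 0.42) and CENPJ (-0.44, SE 0.41), followed by STIL (-0.36) and PCNT (-0.31), and SASS6 (-0.04), CEP192 (-0.04) and CEP63 (0.04) were near 0. All 10 of the 95% intervals included 0, and the limma adjusted p was 0.999 for all 10 genes and also for PRC1 (-3.02), which ranked first. Without RDES shCDS the coefficient of PLK4 was -0.06, of CENPJ -0.07, of STIL -0.04, of PCNT -0.02, of CDK5RAP2 -0.16 and of CEP152 -0.21, so most of each value came from that line.

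A test of whether the Dox difference itself differed between the cell lines over the 4 shPRC1 lines called none of the 10 genes. The coefficient, RDES minus SK-N-MC, was -0.73 for PLK4 (SE 0.46), -0.63 for CENPJ (SE 0.48), -0.49 for SASS6 (SE 0.41), -0.45 for CEP152 (SE 0.48) and 0.37 for TRIM37 (SE 0.44), each with a limma adjusted p of 1.00, and the other 5 ran from -0.20 to -0.01. Of all genes tested 0.0132% passed, the 2 genes STC1 (3.36, 0.0175) and ALDOC (3.44, 0.0348), both higher with Dox in RDES relative to SK-N-MC and named after their values were seen. With only 2 differences per cell line, RDES shCDS and RDES shUTR enter the same mean although PLK4 was at -1.52 and -0.18 in them.

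Cell cycle genes differed from Dox (-) in the same line. Of 30 reference genes of proliferation, all on the array, 26 were at or below -1 in RDES shCDS (median -1.24), among them AURKB, a mitotic kinase (-2.42), CCNB1, the mitotic cyclin (-1.50), and MKI67, the proliferation marker (-1.43). In the other 5 lines the median of this list ran from -0.28 to 0.14. The mean log2 signal of the 30 genes was 11.76 on the RDES shCDS Dox (+) array and 13.14 to 13.48 on the other 11, and that of the 10 centriole genes was 10.48 against 11.05 to 11.53. The part of lower proliferation in the values of PLK4 and the other 9 genes was not tested.

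Centrosome genes outside the 10 were less uniformly low in RDES shCDS by count, though this was not tested. Among the licensing and kinase genes 6 of 14 were at or below -1 (median -0.93), among them CDK2, the S phase kinase (-1.53), CDC20 (-1.48), TPX2, an activator of Aurora A (-1.46), PLK1, the kinase that acts with PRC1 in cytokinesis (-1.10), and AURKA (-1.08). Of the pericentriolar and linker genes 3 of 20 were at or below -1, TACC3 (-1.81), MZT2B (-1.65) and NEK2, which dissolves the linker (-1.47). Of the appendage genes 2 of 13 were, NIN (-1.47) and CEP128 (-1.30), and CEP128 was also low in SK-N-MC shCDS (-0.998) and SK-N-MC shUTR (-0.81). None of 28 other assembly genes (median -0.34) and none of 7 surveillance genes (median -0.35) reached -1, against 3.97% of all genes tested. Closest to it were the assembly genes TEDC2 (-0.99) and CEP135 (-0.96) and the surveillance gene CRADD (-0.93).

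**Figure D4:**
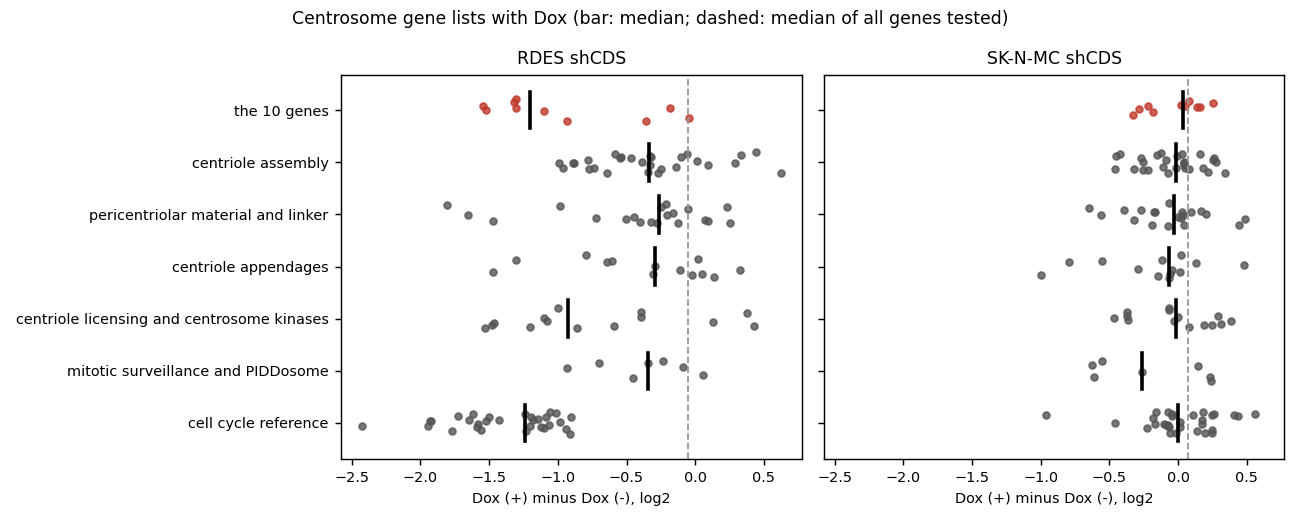
Dox (+) minus Dox (-) log2 difference (x axis) of each tested gene in 7 lists (rows, red for the 10 genes) in RDES shCDS and SK-N-MC shCDS, with black bars for list medians and a dashed line for the median of all genes tested. In RDES shCDS the 10 genes (median -1.20) and the cell cycle reference (-1.24) lie lower than assembly genes (-0.34), and in SK-N-MC shCDS all list medians lie between -0.26 and 0.03.

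In none of these lists did a gene pass the test of PRC1 silencing, and the coefficients with the greatest size are given as values only. They were -0.84 for MZT2B and -0.65 for NEK2, -0.73 for CEP85, -0.78 for CDK2, -0.65 for CEP128 and -0.62 for NIN, and -0.57 for USP28, a component of the surveillance complex, all with a limma adjusted p of 0.999. AURKB stood at -1.19 (SE 0.52, 0.999).

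The promoter matches did not divide the 10 genes by their Dox differences. Of the 4 genes with a CHR match, PLK4, CEP152 and CDK5RAP2 were at -1.30 or lower in RDES shCDS, but CEP192 was at -0.04. The match lies 194 bases before the annotated start in CEP192 and 179 before it in CEP152. It begins at base 39 from the start in PLK4 and at base 45 in CDK5RAP2. The place of a match was not weighed. CENPJ, STIL and PCNT, with no match in the window searched, were at -1.54, -1.32 and -1.10. Of the 2 genes with an E2F match, SASS6 was at -0.93 and TRIM37 at -0.36.

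Pairs among the 10 genes were described by Pearson's r over the 12 arrays, which share derivative lines and parental lines and are not independent. CENPJ and CEP152 had an r of 0.86 and PLK4 and CEP152 of 0.83, but without the RDES shCDS Dox (+) array these were 0.31 and -0.04. The values of STIL and PCNT (0.89, and 0.86 without that array) and of STIL and SASS6 (0.81 and 0.81) did not rest on it. CEP63 and CDK5RAP2, the genes with the greatest cell line differences among the 10, had an r of -0.84, and -0.96 without that array. By its brighter probe set, TRIM37 had an r of 0.36 with PLK4, and -0.25 without that array, whereas TRIM37 and CEP152 had 0.72 and 0.76.

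Among all genes tested, the 5 whose signal was most like that of PLK4 over the 12 arrays were MELK, a mitotic kinase (r = 0.941), KIF11, the spindle motor (0.909), the histone gene H2AC8 (0.908), PPID (0.901) and WDR76 (0.900). Without the RDES shCDS Dox (+) array these were 0.546, 0.224, 0.261, 0.495 and 0.216, so the likeness rested largely on 1 array. For TRIM37 the 5 were FZD9 (0.909), the proteasome subunit PSMD12 (0.904), BTBD17 (0.898), F2RL3 (0.883) and the respiratory chain gene UQCRC1 (0.879), with values of 0.838 to 0.898 without that array. TRIM37 and PLK4 shared none of these genes.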

How the data were processed

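Total RNA of 12 conditions was hybridized to Clariom D arrays. The authors deposited a log2 signal for every probe set and array, computed by SST-RMA with quantile normalization and gene-level summary. The paper names Transcriptome Analysis Console 4.0 and library version 2, the series text Expression Console 1.4, and the submitters' processing notes RMA and hg38. Array medians were 5.29 to 5.40. Precision is limited by the small number of arrays.

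Of 135750 probe sets, 36176 with a single symbol were used, 623 of them under an updated RefSeq symbol. The brightest probe set stood for a gene. The filter was a mean of at least 6.5 over the 6 Dox (-) arrays. The fits used limma 3.58.1 in R 4.3.3 (lmFit, eBayes without trend): Dox differences of 6 lines with terms for shPRC1 and cell line, log2 signals of the 4 shPRC1 Dox (-) arrays, and Dox differences of the 4 shPRC1 lines. Residual degrees of freedom were 3, 2 and 2. Tests were two-sided, with Benjamini-Hochberg adjustment over 15194 genes and a threshold of 0.05. The fits were also run on simulated data with a common spread for all genes and the same effect in every affected line. That setting differs from these data, so it cannot show how well the tests perform here. Other descriptions used Python 3.11.15 and pandas 2.3.3.

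The 10 genes, gene lists and tests were chosen with earlier results of these data known. Named were all 10 genes, PRC1, up to 4 genes of each other list per comparison by size of the coefficient (those past the threshold where any passed), the 5 genes most like PLK4 and TRIM37, and AURKB, MKI67 and CCNB1. STAG2 and BGN, and the genes named for their value in RDES shCDS, were outside that rule, picked with their values known. POC1B, MZT2A, CEP83, NR0B1 and COL3A1 were not analysed here, and TEDC1, CDKN1A and PIDD1 were under the filter. Alternatives were the mean of all probe sets, median centring, no filter, a trended prior, each line left out, other handling of shCtrl, and Dox (+) or averaged arrays.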

Additional observations from a re-analysis of the deposited data

How the results depend on the processing

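Over the alternatives, the limma adjusted p of the 10 genes ran from 0.625 to 1.00 for PRC1 silencing, from 0.000239 to 0.998 for the cell line difference and from 0.198 to 1.00 for the difference between cell lines in the Dox effect. For silencing, 111 of 120 values kept their direction and side of the threshold, and for the cell line difference 93 of 110. These counts do not measure stability, since some alternatives cannot change a direction. No filter and a trended prior leave every coefficient as it was, as does, for silencing, the mean of both shCtrl differences. The mean of all probe sets can move only TRIM37. For silencing the side of the threshold is no guide either, since PRC1 itself did not pass in the main fit. For the difference in the Dox effect 11 of 90 values were counted as reversed, all of them with 1 line left out. That count did not judge direction where the shCtrl difference was subtracted. With that subtraction the coefficients of STIL, CEP152, PCNT and CDK5RAP2 also changed sign, as did that of CEP63, to nearly 0. The reversed silencing coefficients were small. TRIM37 stood at 0.13 with the mean of its probe sets and ran from -0.41 to 0.050 when 1 line was left out, above 0 without SK-N-MC shCtrl or SK-N-MC shUTR. With centred arrays SASS6 stood at 0.031 and CEP192 at 0.034. With 1 line left out SASS6 ran from -0.22 (without RDES shUTR) to 0.16 (without RDES shCDS), and CEP63 from -0.035 (without RDES shUTR) to 0.12. Leaving out 1 line gave 0 to 1 lower genes past the threshold, and the 1 gene was PRC1, without SK-N-MC shCDS (adjusted p = 0.00440) or RDES shUTR (0.0480). The shCtrl lines were left out as a choice made after seeing the data.

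For the cell line difference, PLK4 reversed to -0.62 on the Dox (+) arrays and -0.26 on averaged arrays, and ran from -0.0020 (without SK-N-MC shUTR) to 0.22 when 1 line was left out. With a trended prior 5 of the 10 genes passed, STIL (0.0442) and CENPJ (0.0461) being added. Leaving out 1 line gave 1225 (without SK-N-MC shCDS) to 2761 higher genes, 1961 (without SK-N-MC shUTR) to 4315 lower genes and 2 to 5 of the 10, with TRIM37 (-0.73, 0.0455) and CEP192 (1.13, 0.00311) added without RDES shCDS and STIL (0.67, 0.0493) without RDES shUTR. STIL (0.73, 0.0259) also passed with centred arrays, and CENPJ (-0.87, 0.0463) on averaged arrays. On the Dox (+) arrays 1370 genes were higher and 1330 lower, and 1 of the 10, CEP63, passed. With the shCtrl arrays added as labelled, 0 higher, 0 lower and 0 of the 10 passed, with SASS6 at 0.62, CEP63 at -0.90 and CDK5RAP2 at 1.05.

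For the Dox effect between cell lines, the count of higher genes was 1 with the mean of probe sets, 0 with centred arrays and 0 with a trended prior. It ran from 5 (without SK-N-MC shCDS) to 44 (without RDES shUTR) when 1 line was left out, and the count of lower genes from 0 to 41. Between leaving out RDES shUTR and leaving out RDES shCDS, STIL went from -0.81 to 0.77, CENPJ from -1.43 to 0.18, CEP152 from -1.19 to 0.29, CEP63 from -0.25 to 0.11, PCNT from -0.87 to 0.51, CDK5RAP2 from -1.07 to 0.68 and TRIM37 from -0.085 to 0.83. CEP192 ran from -0.077 to 0.061 over the lines left out. The cause of these moves was not tested. No paired analysis by replicate number was possible because each condition has 1 array, and the derivative line paired the arrays in every Dox difference.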
